A study of Mus musculus with 2 samples.

Results

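The loci of 9 transcription factors that keep mouse embryonic stem cells pluripotent were examined for p53 binding: Nanog, Pou5f1, Sox2, Klf4, Esrrb, Prdm14, Tbx3, Sall4 and Tcfcp2l1. Members were the peaks of a p53 ChIP-seq list whose midpoint lay in a fixed window around each gene, on the mm9 build of the mouse genome. The windows together spanned 900 kb, from 50 kb each at Pou5f1 and Sall4 to 200 kb at Esrrb, and held 101 of the 92924 peaks in the list. The study sequenced 1 p53 ChIP library, made with the M-19 antibody, and 1 input library. Both came from mouse embryonic stem cells (strain C57BL/6X129Sv mix, fewer than 20 passages), kept in serum with leukemia inhibitory factor and exposed to Nutlin for 8 hours. The Nutlin amount is 20 in both places that state it, but in different units (µM and mM), so the dose is not settled here. No untreated library was analysed here, so none of the values below is a response to Nutlin. With 1 library of each kind, differences between loci have no replicate check and no test was made, and intervals cover the counting error of peaks alone.

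Pou5f1 (also called Oct4), Sox2 and Nanog form the core circuit of embryonic stem cells. They bind their own genes and each other's, often at enhancers and often at shared sites. Klf4, Esrrb, Tbx3, Tcfcp2l1 and Prdm14 belong to the wider network that holds cells in the naive state, and Sall4 supports Pou5f1 expression. p53 is a sequence-specific transcription factor that Mdm2 keeps at low levels, and Nutlin blocks the contact of Mdm2 with p53. In stem cells p53 has been linked to differentiation, and binding of p53 at Nanog has been described.

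Each peak has a score given by the authors' peak caller, which grows with read depth and with enrichment over input and starts at 50 (p = 1e-05 on a scale of −10 × log10 of the p-value). The scores rank peaks within this list and are not amounts of p53. For all 9 genes, the RefSeq gene table for GRCm38 gave the same chromosome as the window and a gene shorter than the window. Gene bounds on mm9 were not used here, so a peak is placed in its window and not called promoter, intron or enhancer. A window can also hold parts of other genes. In the gene order of GRCm38, the coding neighbours of Nanog are Dppa3 and Slc2a3, those of Pou5f1 are H2-Q10 and Tcf19, and those of Prdm14 are Slco5a1 and Ncoa2.

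Sequence under the peaks was not analysed here, since no mm9 sequence was used. RefSeq promoters of GRCm38 (250 bases before to 50 after a start site) were matched for 6 of the 9 genes, with 9 promoters in all: 2 each for Nanog, Pou5f1 and Esrrb, and 1 each for Sox2, Klf4 and Tcfcp2l1 (listed by RefSeq as Tfcp2l1). The p53 half-site consensus is 10 bases long and has at its centre a C, then a pair of bases that are each A or T, then a G. It reads the same on both strands. An exact match was found in 0 of the 9 promoters, beside 8.36% of all 32851 promoters in the table. With 1 mismatch allowed outside the central 4 bases, 3 of the 9 held a match (in Sox2, Esrrb and Tcfcp2l1), beside 39.6% of all promoters. The 2 near matches that lie before the start site are given in capitals, in the 250 bases before the start, 5′ to 3′. They come from a locus with a strong p53 peak, Esrrb, and from the locus with the weakest peaks, Tcfcp2l1. The Esrrb sequence is chr12:86421394-86421643 (GRCm38.p6, plus strand), before the later of its 2 listed starts. The Tcfcp2l1 sequence is chr1:118627695-118627944 (GRCm38.p6, plus strand).
Esrrb: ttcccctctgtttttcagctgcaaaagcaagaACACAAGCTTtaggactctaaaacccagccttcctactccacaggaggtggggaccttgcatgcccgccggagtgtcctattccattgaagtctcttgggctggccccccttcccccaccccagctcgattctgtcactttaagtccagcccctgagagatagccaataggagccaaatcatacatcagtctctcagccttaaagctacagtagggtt
Tcfcp2l1: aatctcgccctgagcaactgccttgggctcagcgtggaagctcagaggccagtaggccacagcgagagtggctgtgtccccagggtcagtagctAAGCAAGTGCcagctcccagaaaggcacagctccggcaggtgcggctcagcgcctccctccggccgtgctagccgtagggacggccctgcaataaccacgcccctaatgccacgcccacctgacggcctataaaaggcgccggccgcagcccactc
These are matches of letters on another build, not positions of peaks, and they were not placed against the windows.

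p53 peaks were found at every one of the 9 loci, and they were numerous. The median autosomal window of the same length also held peaks, from 1 (50 kb) to 4 (200 kb). Most members were weak, as in the list: 63.4% of members and 57.05% of the list scored under 100. The windows held 1.12 peaks per 10 kb (95% Poisson interval 0.914 to 1.36), against 0.382 per 10 kb over the rest of the autosomes, a ratio of 2.94 (exact conditional 95% interval 2.39 to 3.57). Much of this excess was shared by the surroundings. The 1 Mb on each side of the windows held 0.705 peaks per 10 kb, which left a ratio of 1.59 (1.29 to 1.95). Peaks covered 6.41% of the bases in the windows and 2.15% of the autosomes.

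The strength of the peaks at these loci resembled that of the list in its lower range. Their median score was 85.8 (exact 95% interval 74.0 to 94.3), beside 87.5 over the list and 89.3 in the flanking 1 Mb. A score of 100 or more was reached by 37 of 101 members (36.6%, exact Clopper-Pearson interval 27.3% to 46.8%), beside 43.0% of the list. At 500 or more there were 11 members (10.9%, 5.56% to 18.6%), beside 10.3% of the list. Both shares of the list lie inside the members' intervals.

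The share of very strong peaks could not be told from that of the list. A total of 3 members scored 1000 or more (2.97%, interval 0.617% to 8.44%), beside 5.77% of the list and 5.44% of the flanking peaks. They lay at Pou5f1, Esrrb and Klf4, 1 at each. The list share lies inside the members' interval, so a shortage was not detectable with 101 peaks. At 3100 or more, where scores of the list pile up, there were 0 of 101 members, beside 1.62% of the list. A count of 0 allows a share of up to 2.97% (3 counts of the total), and the exact two-sided 95% interval reaches 3.59%. Each of the 9 loci had a peak of 3100 or more within 1 Mb of its window, 25 of the 1269 flanking peaks in all (1.97%). The nearest lay 27.9 kb from the Tcfcp2l1 window, and the most distant of the nearest lay 870 kb from the Esrrb window.

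**Figure D1:**
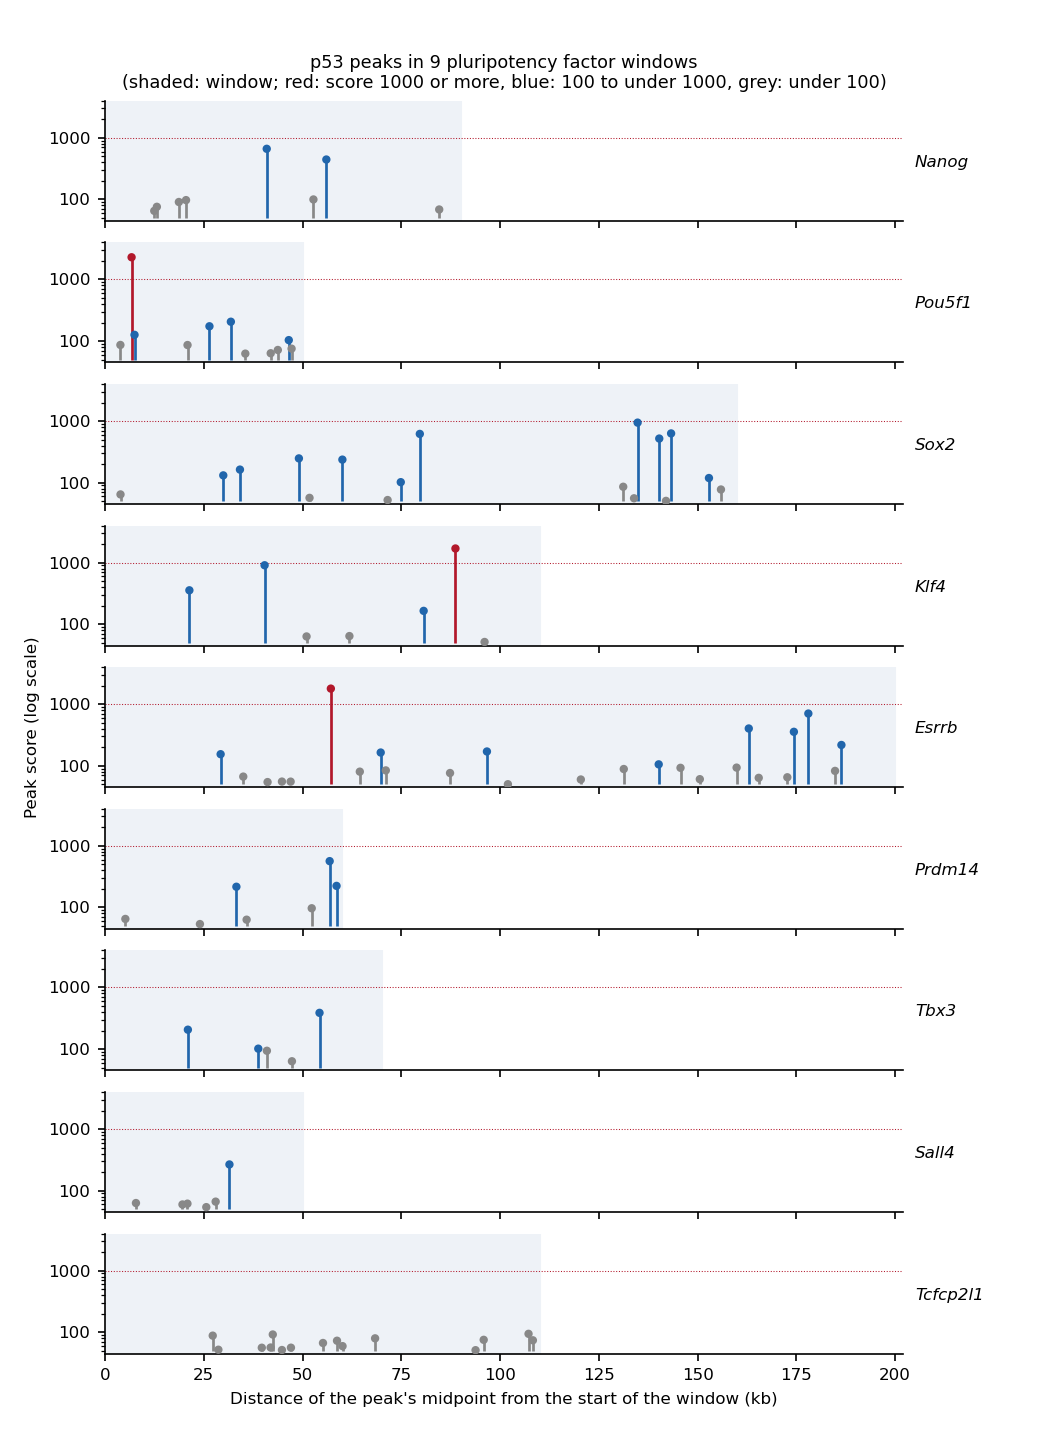
Each row is 1 window, with the distance of a peak's midpoint from the start of the window in kb on the x axis and the peak score on a log y axis, where a line and point stand for 1 peak. The 3 peaks of score 1000 or more (red) stand at Pou5f1, Klf4 and Esrrb, while all 15 peaks at Tcfcp2l1 are under 100 (grey).

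Pou5f1, which encodes the POU-domain factor Oct4, had the strongest single peak of the 9 loci and the highest density in the windows as given. With windows widened by 50 kb on each side Prdm14 was densest. The 50 kb Pou5f1 window held 11 peaks, or 2.20 per 10 kb (95% interval 1.10 to 3.94), and they covered 12.1% of it. Of the autosomal windows of this length, 1.51% held as many peaks or more, and the median held 1. The flanking 1 Mb on each side held 0.850 per 10 kb, a ratio of 2.59 (1.27 to 4.75). The strongest peak, chr17:35626416-35627043, was 628 bases wide and scored 2294.95, and 2.37% of the list scored higher. A second peak of score 126.20 began 148 bases after it. The other peaks at Pou5f1 were far weaker, with 205.98 the next highest score and 6 of the 11 under 100. With gaps of at most 5 kb inside a chain, its 11 peaks made 3 chains, of 3, 4 and 4 peaks, with the strong peak in the first.

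Esrrb, which encodes an orphan nuclear receptor of the naive network, had the most peaks. Its 200 kb window held 25, or 1.25 per 10 kb (0.809 to 1.85), a number that 5.95% of autosomal windows of this length reached. Gaps between neighbours ran from 676 to 18080 bases, and the longest stretch without a peak was the first 29.0 kb of the window. The strongest, chr12:87736568-87737775, was 1208 bases wide and scored 1796.41, with 3.20% of the list above it. It had 9332 bases to the peak before and 6461 bases to the peak after, beside a median gap of 5056 at the locus. In the last part of the window, 4 peaks scored 404.30, 357.11, 707.01 and 218.30, with peaks under 100 lying among them. Scores under 100 made up 16 of the 25 peaks, and the median score was 84.3, near the list's 87.5. A peak of score 2501.03, higher than any member, lay 2.00 kb before the window and is not counted at this locus.

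Klf4, which encodes a zinc finger factor of the reprogramming set, had few and widely spaced peaks. Its 110 kb window held 7 peaks, or 0.636 per 10 kb (0.256 to 1.31), the lowest density of the 9. The median score of 165 was the highest of the 9 loci, with an interval of 51.6 to 1699 that spans the whole locus. The strongest peak, chr4:55548414-55549003, was 590 bases wide and scored 1699.44, with 3.39% of the list above it. The next scored 907.94 and the next 355.91, and 3 of the 7 scored under 100. No 2 peaks at Klf4 lay within 5 kb of each other: gaps ran from 6878 to 18300 bases, whereas each of the other 8 loci had at least 1 gap of 5 kb or less. Klf4 lies in a sparse region, with 0.250 peaks per 10 kb in its flanks.

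Sox2, the HMG-box partner of Oct4, held no peak of 1000 or more but the most peaks of 500 or more. Its 160 kb window held 17 peaks, or 1.06 per 10 kb (0.619 to 1.70), against 0.385 in the flanks, a ratio of 2.76 (1.53 to 4.71). A stretch of 12.8 kb, from 34650798 to 34663584, held 6 of them, and 3 of these scored 943.59, 520.14 and 630.25. The strongest, chr3:34654227-34655418, was 1192 bases wide, began 83 bases after a peak of 55.71, and ranked above all but 6.08% of the list. Another strong peak scored 618.71, was 1168 bases wide and lay just before a stretch of 50523 bases without a peak. That stretch was the longest gap between neighbours at any of the 9 loci. Peaks at Sox2 thus lay on either side of it, and the strongest on each side was far above the locus median of 119. Before this stretch the peaks were spread out, with gaps of up to 25460 bases, and the next highest score there was 247.66. In GRCm38 the long non-coding gene Sox2ot overlaps Sox2, so peaks around Sox2 may lie in either gene.

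Nanog, a homeodomain factor, held 8 peaks in 90 kb. This is 0.889 per 10 kb (0.384 to 1.75), and 14.7% of autosomal windows of this length held as many. The flanks of Nanog held 0.185 per 10 kb, the lowest of the 9, and the ratio of 4.80 (1.93 to 10.5) was the highest. This ratio is an average over 1 Mb on each side. With its window widened by 50 kb on each side, Nanog held 18 peaks instead of 8. Its 2 strongest peaks were chr6:122640654-122641229, 576 bases wide with a score of 664.65, and chr6:122655693-122656366, 674 bases wide with a score of 445.09. The first ranked second of the 44 peaks within 1 Mb on either side of it. The other 6 peaks at Nanog scored from 65.23 to 99.96, so the locus had a clear pair of peaks over a low remainder.

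Prdm14, which encodes a PR-domain protein that restrains differentiation signals in the naive state, held 7 peaks in 60 kb. This is 1.17 per 10 kb (0.469 to 2.40), against 0.335 in the flanks, a ratio of 3.48 (1.35 to 7.58). With its window widened by 50 kb on each side, Prdm14 held 23 peaks instead of 7. Its 2 strongest peaks were neighbours at the end of the window, 1133 bases apart: chr1:13136522-13137218 scored 565.05 and chr1:13138352-13138874 scored 223.93. With the peak before them (97.01) they formed a chain of 3 peaks over 6.87 kb. The whole group sits within 10 kb of the end of the window.

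Tbx3, a T-box factor, and Sall4, a spalt-type zinc finger protein, were the loci with a lower density than their flanks. The intervals of both ratios included 1. So did those of Esrrb (1.381, 0.871 to 2.105), Tcfcp2l1 (1.384, 0.760 to 2.340) and Klf4 (2.545, 0.974 to 5.641). Tbx3 held 5 peaks in 70 kb, 0.714 per 10 kb (0.232 to 1.67) against 1.19 in its flanks, a ratio of 0.603 (0.194 to 1.43). Its strongest peaks, chr5:120144036-120144571 and chr5:120110578-120111377, scored 387.23 and 206.22. Sall4 held 6 peaks in 50 kb, 1.20 per 10 kb (0.440 to 2.61) against 1.26 in its flanks, a ratio of 0.949 (0.345 to 2.09). Its strongest peak, chr2:168580974-168582031, was 1058 bases wide and scored 266.25, while the second highest score was 66.31 and the median 62.2. Sall4 thus had 1 moderate peak, and its other 5 scored from 53.99 to 66.31.

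Tcfcp2l1, a CP2-family factor downstream of leukemia inhibitory factor, was densely covered with weak peaks alone. Its 110 kb window held 15 peaks, or 1.36 per 10 kb (0.763 to 2.25), second to Pou5f1, and 5.56% of autosomal windows of this length held as many. The flanks held 0.985 per 10 kb, a ratio of 1.384 (0.760 to 2.340), so its density could not be told from that around it. None of the 15 reached a score of 100 (0%, exact interval to 21.8%), and the scores ran from 51.14 to 94.27 with a median of 66.9. Its 2 highest-scoring peaks were chr1:120606824-120607605 (94.27) and chr1:120542186-120542747 (91.91). Of the 1219 autosomal windows of the same length with 15 or more peaks, 0 lacked a peak of 100 or more, and 61.9% held one of 1000 or more. This comparison was chosen after the scores had been seen and is a description. The flanking 1 Mb on each side held 15 peaks of 1000 or more, the nearest 27.9 kb from the window.

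**Figure D2:**
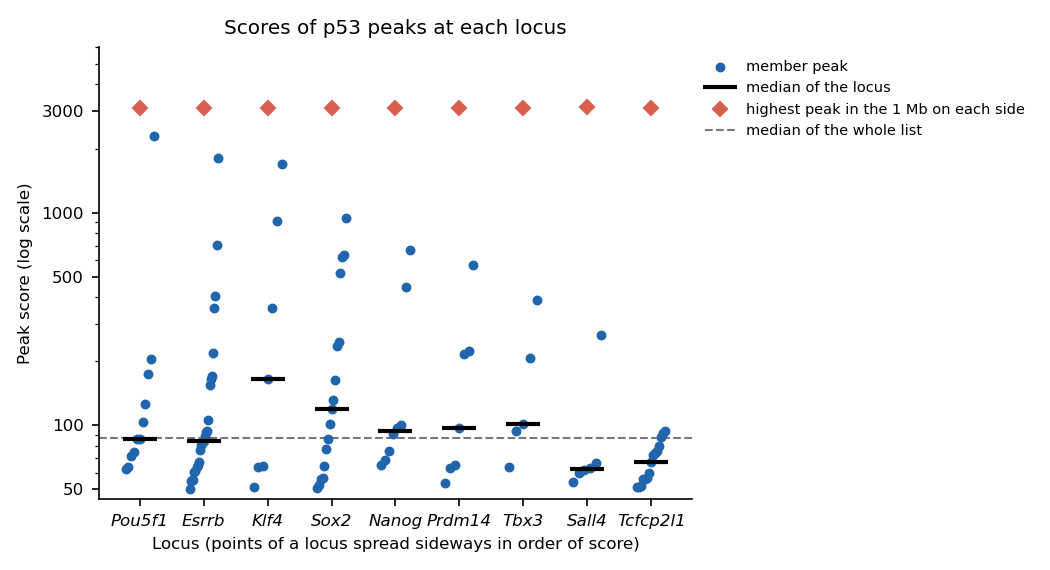
The y axis gives peak scores on a log scale for the 9 loci, ordered by their highest peak, with 1 blue point for each member peak, a black bar for the locus median and a diamond for the highest peak in the 1 Mb on each side. Highest scores fall from 2294.95 at Pou5f1 to 94.27 at Tcfcp2l1, while the diamonds all stand at 3100 or just above.

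Ordered by density, the loci ran from Pou5f1 (2.20 per 10 kb) through Tcfcp2l1 (1.36), Esrrb (1.25), Sall4 (1.20), Prdm14 (1.17), Sox2 (1.06), Nanog (0.889) and Tbx3 (0.714) to Klf4 (0.636). Neighbours in this order did not differ beyond counting error. Of the 36 pairs of loci, 1 had a density ratio whose 95% interval lay above 1, Pou5f1 over Klf4 with a ratio of 3.46 (1.22 to 10.5), and this interval is not corrected for the 36 pairs. It reached below 1 with peaks up to 1 kb apart merged (2.83, 0.937 to 8.94) and in the central 50 kb of each window (3.67, 0.969 to 20.5). Density exceeded that of the flanks at 7 of the 9 loci, and at 4 of them (Nanog, Pou5f1, Sox2 and Prdm14) the interval lay above 1. These ratios average over 1 Mb on each side. With windows widened by 50 kb on each side, counts rose from 11 to 18 at Pou5f1 and from 17 to 23 at Sox2. They rose from 8 to 18 at Nanog and from 7 to 23 at Prdm14, so the bases beside these windows also held many peaks. All 9 held more peaks than the median autosomal window of their length, and 2 of them (Pou5f1 and Tcfcp2l1) reached the 95th percentile of such windows. The order by highest score was different: Pou5f1, Esrrb, Klf4, Sox2, Nanog, Prdm14, Tbx3, Sall4 and Tcfcp2l1. Tcfcp2l1 was second by density and last by score, and Klf4 was last by density and behind Pou5f1 and Esrrb alone by score.

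**Figure D3:**
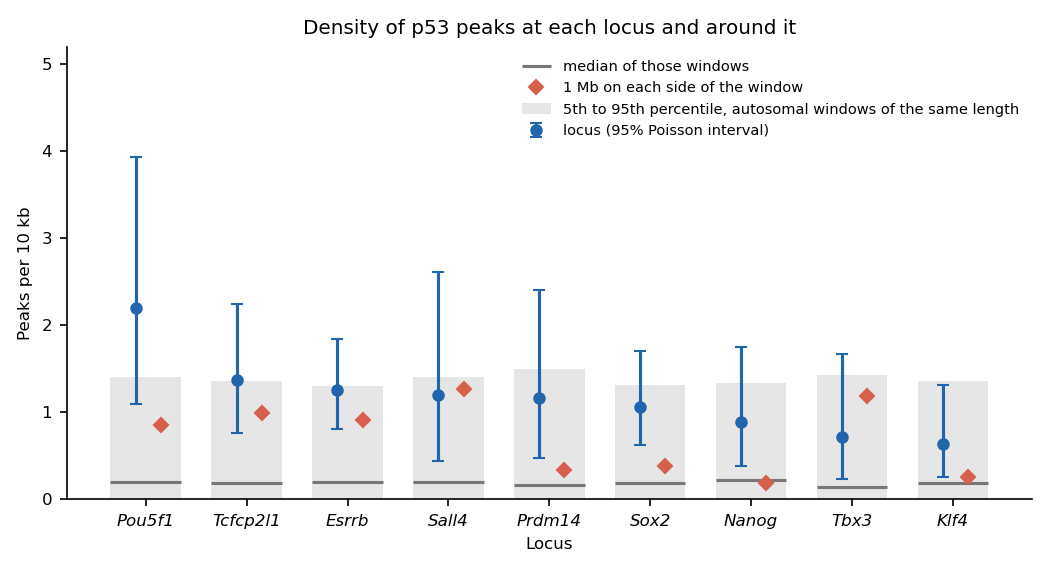
The y axis gives p53 peaks per 10 kb for each locus (blue, with 95% Poisson intervals), for the 1 Mb on each side of its window (diamonds) and for autosomal windows of the same length (grey bars from the 5th to the 95th percentile, with the median as a line). Pou5f1 is highest at 2.20 per 10 kb, and Tbx3 and Sall4 lie below their flanks.

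Under a score of 1000, median widths at these loci were at or a little above those of peaks of the same score class in the list, while 2 of the 3 stronger peaks were narrower. The median width was 536 bases (exact 95% interval 502 to 564, range 269 to 1217), beside 509 over the list and 521 in the flanks. In the weakest class, scores under 100, 64 members had a median of 488 bases against 448 over the list, and 40 of the 64 were above the list's median. At scores from 200 to under 500 the 13 members had a median of 705 bases against 662, and from 500 to under 1000 the 8 members had 724 against 714. The 3 strongest peaks differed among themselves: the Pou5f1 and Klf4 peaks, at 628 and 590 bases, were narrower than the list's median of 786 for scores of 1000 to under 3000, and the Esrrb peak, at 1208 bases, was wider. A width of 1000 bases or more was seen in 7 members at 4 loci (6.93%, interval 2.83% to 13.8%, beside 4.59% of the list), 3 at Esrrb, 2 at Sox2 and 1 each at Klf4 and Sall4, with scores from 266.25 to 1796.41.

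**Figure D4:**
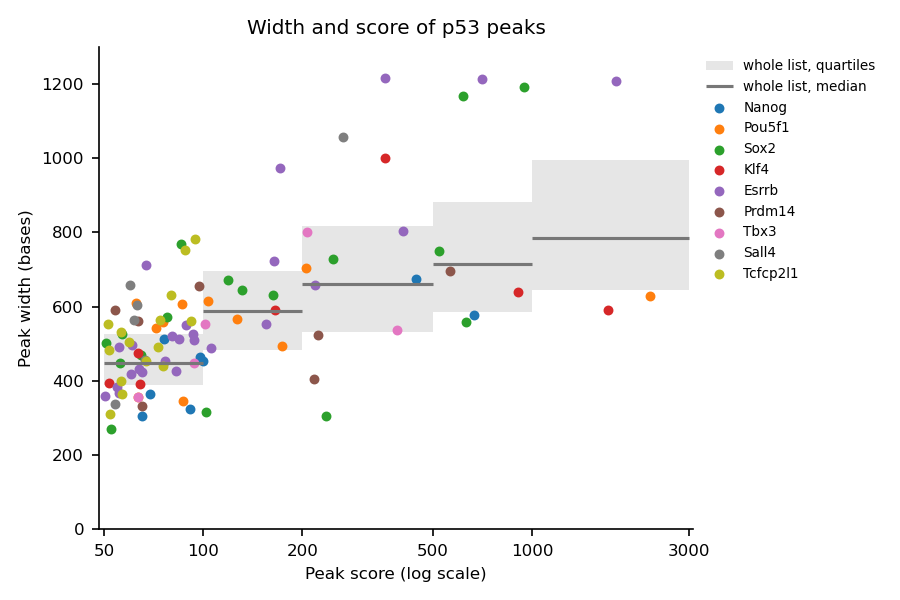
Peak width in bases is plotted against peak score (log scale), with 1 point for each of the 101 members coloured by locus, over the quartiles (grey) and medians (lines) of the whole list in 5 score classes. Members spread around the list's medians, and the widest Esrrb and Sox2 peaks, of 1168 to 1217 bases, stand above the quartiles of their class.

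Within a window, neighbouring members lay a median of 4654 bases apart from the end of one to the start of the next (92 gaps, exact 95% interval 3043 to 5943, range 73 to 50523). The median was 5175 bases in the flanks and 8326 over whole autosomes, where no window cuts off long gaps. In autosomal windows of the same lengths, the median gap ran from 4640 bases (50 kb windows) to 6900 bases (200 kb windows). The next member lay within 5 kb for 49 of 92 gaps (53.3%, interval 42.6% to 63.7%), beside 48.9% in the flanks and 37.6% over whole autosomes. This share was not taken in autosomal windows of the same lengths. Pooled over the loci, spacing was therefore close to that of the pooled flanks. The windows cut off long gaps more than the 1 Mb flanks do, and loci with dense flanks weigh more among the flank gaps. Gaps at single loci were not compared with their own flanks. Density was above the flanks, with intervals above 1, at Nanog, Pou5f1, Sox2 and Prdm14, while intervals at the other loci included 1. Tcfcp2l1 had the shortest median gap, 1818 bases, followed by Pou5f1 (2674) and Sall4 (2731), and Klf4 had the longest, 10236 bases. Autosomal windows of the same length had a median gap of 6057 bases for Tcfcp2l1 and Klf4, and 4640 for Pou5f1 and Sall4. Pairs split by 200 bases or less made up 4 of 92 gaps (4.35%, against 3.78% over the autosomes), 2 of them at Pou5f1 and 1 each at Sox2 and Tcfcp2l1.

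The windows have fixed edges, and some peaks fell just outside them. The 18 members nearest an edge scored from 51.55 to 387.23 (median 81.9), and the 18 nearest peaks outside scored from 52.54 to 2501.03 (median 94.6). These outside peaks lay from 0.760 to 40.4 kb from the edge. The highest of them is the peak before the Esrrb window.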

How the data were processed

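The deposited file is 1 list of peaks with position, name and score, called from 1 p53 ChIP library and 1 input library. Libraries were assigned to groups by their titles. Its build is mm9, and the tools listed are MACS 1.4.1 and CASAVA 1.8.2, per the submitters' processing notes. Aligner, caller settings and read totals: not given in the sources used here. Each score was deposited as the authors' caller wrote it. BED starts were shifted to count from 1.

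A peak belonged to a locus if its midpoint lay in the window. Autosomal length was taken from first to last peak, and non-overlapping windows of each locus length were laid along it. Intervals are exact (Poisson, conditional binomial, Clopper-Pearson, order statistics for medians). Peaks gather together, so intervals that treat them as independent are too narrow. Functions were tested on simulated peaks. Promoters came from RefSeq (GRCm38.p6) and were not placed against peaks.

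Named peaks were the highest of each locus and any of 1000 or more, or the 2 highest where a locus had none. At Sox2 and Sall4 the second of these is given by score alone. Further peaks, such as those in the 12.8 kb stretch at Sox2 and the last part of the Esrrb window, were named after their values were seen. The members, windows and lists were chosen with earlier results of these data known. A planned list of other pluripotency genes needs mm9 gene positions and was not run. Python 3.11.15, NumPy 2.4.6, pandas 2.3.3, SciPy 1.17.1 and Matplotlib 3.10.9 were used.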

Additional observations from a re-analysis of the deposited data

How the results depend on the processing

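Of 78 recomputed values for peaks at the 9 loci that have a 95% interval, 73 stayed within the interval of the reported value, among them all 13 for the median score. Many of these settings left out 1 locus or returned the same peaks (any overlap with the window), so little change was possible. Peak counts of single loci changed more: 21 recomputed counts differed more than 1.5-fold from the reported count. All of these counts came from settings that changed the window length or kept only scores of 100 or more. Examples are Nanog (8 to 18, widened) and Esrrb (25 to 4, central 50 kb). The density ratio to autosomes of 2.94 fell to 1.59 against the 1 Mb on each side. At scores of 100 or more, the median spacing rose to 13998 bases and the median width to 646 bases, and no ratio of the densest to the sparsest locus could be given because Tcfcp2l1 then has no peak. The share of strong peaks was 10.9% at a threshold of 500 and 23.8% at 200. Promoters with a half-site rose from 0 to 3 with 1 mismatch allowed. When each locus was left out in turn, the density ratio ranged from 2.77 to 3.11, the strong share from 2.13% to 3.57%, the median width from 526 to 553 bases and the median spacing from 4197 to 4913 bases. The ratio of the densest to the sparsest locus stayed within its interval of 1.22 to 10.5, but with windows widened by 50 kb it was Prdm14 over Klf4 (2.74). Counting occupied 1 Mb bins as background was added after seeing the data. No paired analysis was possible because there is 1 ChIP and 1 input library, and no replicate could be left out. The read depth is unknown, so how many weak peaks would recur in another library was not tested.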
